A study of Mus musculus with 8 samples.

Results

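The Slc25 genes encode the mitochondrial carrier family, and 46 of them were measured among 18820 genes in the epididymal fat of obese mice. They were taken by name: every gene whose single annotated symbol is Slc25a followed by a number, with the probe set of highest mean over all 8 arrays kept for each gene. The relatives Ucp1 and Ucp3, and Mtch1 and Mtch2, have other names and were looked at separately.

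The fat pad beside the testis was taken from male C57BL/6 mice after 16 weeks on a high-fat diet with 45% of energy from fat, which followed 2 weeks at 10%. Wild-type mice, bought from a supplier, gave 4 arrays, and 4 were of IL-37 transgenic mice, which overexpress human interleukin-37, a signalling protein that restrains innate inflammation. Both groups ate the same diet. Because the wild-type mice were bought, genotype and the source of the mice cannot be told apart, and the labels give neither the age of the mice nor the promoter of the transgene. The labels call the arrays replicates without saying that each is a separate mouse, so a p-value reflects only the scatter among these samples, which may be technical. Values are log2 expression levels, and a difference is always transgenic minus wild type.

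Carriers of this family sit mostly in the inner mitochondrial membrane, which is closed to charged metabolites, and each moves a small set of solutes between matrix and cytosol. They exchange ATP for ADP, bring in phosphate, and pass citrate, malate, aspartate, glutamate, acylcarnitines and cofactors across. In fat cells the citrate carrier supplies carbon for fatty acid synthesis in the cytosol, and the aspartate-glutamate carriers are a step of the malate-aspartate shuttle, which brings reducing equivalents of cytosolic NADH into the matrix.

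2 members passed the test over all genes, in opposite directions. Slc25a23, a calcium-regulated carrier of ATP-magnesium and phosphate, rose in transgenic fat, and Slc25a13, the aspartate-glutamate carrier called citrin, fell. The 250 bases before the start of each are shown because these are the members that passed. They are from RefSeq, build GRCm38.p6, both on the minus strand, 5′ to 3′, with CCAAT boxes and the E-box CACGTG in capitals. For Slc25a23 the stretch is chr17:57059864-57060113, the first of a pair of overlapping windows listed for this gene. For Slc25a13 it is chr6:6217174-6217423.
Slc25a23: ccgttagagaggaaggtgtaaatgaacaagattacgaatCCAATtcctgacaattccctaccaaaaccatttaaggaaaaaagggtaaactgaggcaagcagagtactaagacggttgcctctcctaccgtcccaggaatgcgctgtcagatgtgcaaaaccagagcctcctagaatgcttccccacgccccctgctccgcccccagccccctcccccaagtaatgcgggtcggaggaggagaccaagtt
Slc25a13: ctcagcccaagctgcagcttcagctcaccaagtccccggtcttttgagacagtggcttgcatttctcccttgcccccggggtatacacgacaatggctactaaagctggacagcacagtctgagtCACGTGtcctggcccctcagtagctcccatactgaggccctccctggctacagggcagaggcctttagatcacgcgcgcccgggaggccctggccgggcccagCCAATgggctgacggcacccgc

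Both stretches hold a CCAAT box, and the Slc25a13 stretch alone holds the E-box, which begins 125 bases before the start. 36 of the 46 members had a promoter in the table, in 46 windows. The E-box CACGTG, which reads the same on both strands, was in 17.4% of these windows and in 6.02% of all 32851 windows of the same length. It was found for Slc25a1, Slc25a13, Slc25a14, Slc25a15, Slc25a31, Slc25a33 and Slc25a36. CCAAT on either strand was in 45.7% of member windows and 33.8% of all. The cAMP response element TGACGTCA was in 4.35% and 1.55%, for Slc25a25 and Slc25a36, and the TATA box TATAAA in 4.35% and 12.4%. The ETS motif CCGGAAGT was in 2.17% and 2.88%. The NRF1 motif, a palindrome of 10 bases, and the ERR motif TCAAGGTCA, each known from promoters of respiratory genes, were in none of the member windows and in 0.782% and 0.387% of all. All motifs were searched on both strands and none overlap in the stretches shown. Member windows held a median of 11.5 CG pairs (a C followed by a G), against 6.0 in all windows. CACGTG and TGACGTCA contain such a pair and TATAAA does not, and the part of this in the shares was not tested. The shares are a description of the letters, with no test, and windows of 1 gene overlap.

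Calls were about as frequent in the family as among all genes. 1 of 46 members rose (limma, Benjamini-Hochberg adjusted p at most 0.05), where 2.07% of all genes did, and 1 fell, where 1.27% did (3.34% in either direction). At an unadjusted p of 0.05 by limma 9 members were past the threshold, a share of 19.6% against 20.6% of all genes. 5 of the 9 were higher and 4 lower, where 11.2% and 9.42% of all genes were. The groups did not overlap for 7 members, or 15.2%. 5 of the 7 were higher and 2 lower, where the groups did not overlap upward for 8.24% and downward for 5.73% of all genes. These shares lie close to those of all genes. 28 members had a positive difference and 18 a negative one, with a median of 0.05 against 0.02 over all genes. Leaving out wild-type replicate 2 gave 0.0263 for the members and 0.0232 for all genes. Leaving out wild-type replicate 4 gave 0.0235 and 0.0186, and transgenic replicate 4, 0.0291 and 0.0292. 3 members (Slc25a21, Slc25a31 and Slc25a54) had a mean below 4.49, the 25th percentile of gene means, where differences are understated.

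**Figure D1:**
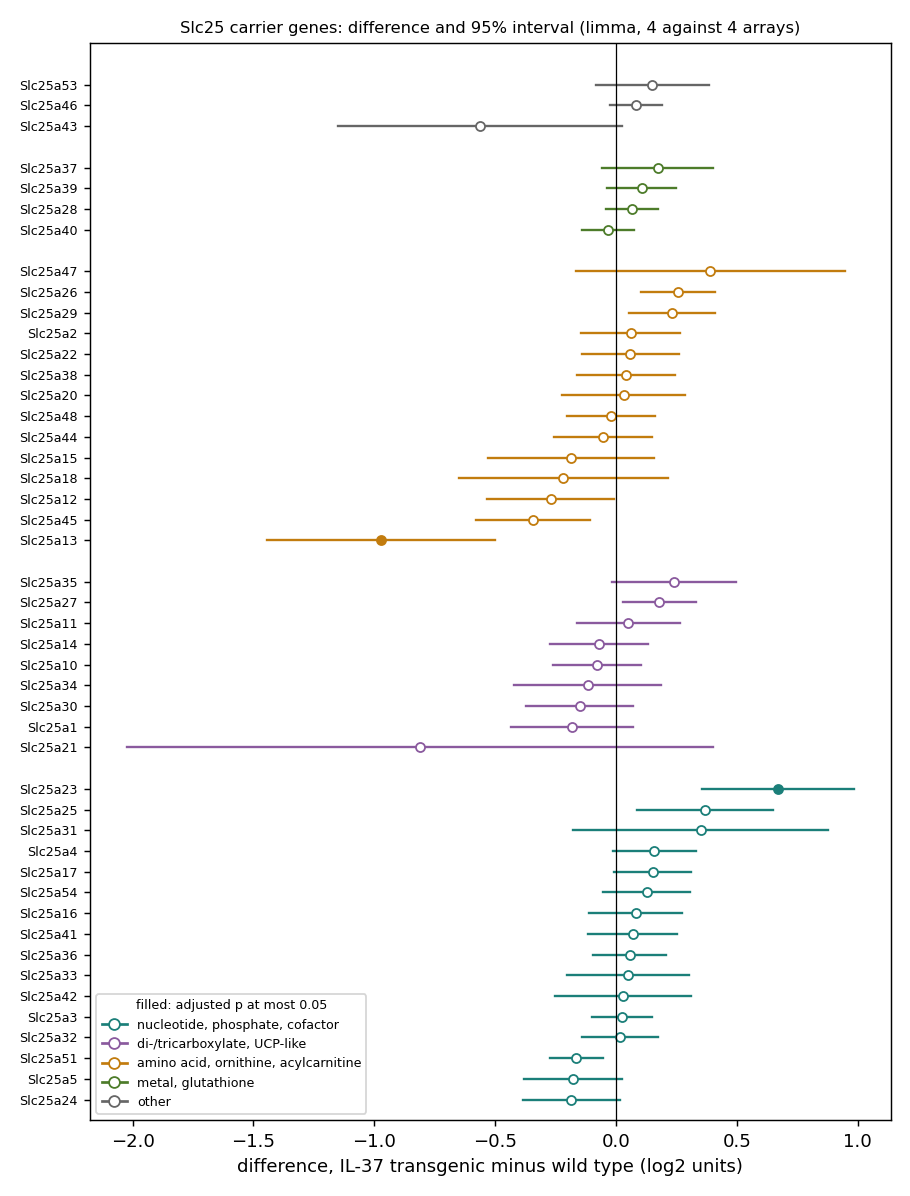
Difference of each of the 46 Slc25 carrier genes, transgenic minus wild type in log2 units (x axis), with its 95% interval from limma, grouped by role. Filled points passed an adjusted p of 0.05: Slc25a23 at 0.67 and Slc25a13 at -0.97, while most of the others lie near 0.

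Some arrays stood apart in ways that touch the members. The mean of 7 macrophage markers was 10.63, 10.60, 9.83 and 10.37 in wild-type replicates 1 to 4 and 10.10, 10.12, 10.12 and 9.78 in transgenic replicates 1 to 4, so that wild-type replicate 3 lay among the transgenic values. Transgenic replicate 4 carried RNA of sperm genes, described with Slc25a31. The mean of 6 adipocyte markers was 11.82 to 11.96 in wild-type and 12.03 to 12.10 in transgenic fat. 2 of the 6 rose by limma (Adipoq and Slc2a4), where 2.07% of all genes did. The mean of 7 mitochondrial content genes (Cs, Tomm20, Vdac1, Tfam, Cox4i1, Uqcrc1 and Atp5a1) was 10.09 to 10.28 and 10.12 to 10.25. None of the 7 passed by limma. In whole tissue, fewer cells of a type and less RNA per cell cannot be told apart. The median probe set of an array was at 5.97 to 6.04, and 8 arrays limit the precision.

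Among 16 measured carriers of nucleotides, phosphate and cofactors, 1 rose and none fell, where 2.07% and 1.27% of all genes did. The riser was Slc25a23, a calcium-regulated exchanger that loads or unloads the matrix pool of adenine nucleotides. Its log2 levels were 9.01, 8.58, 9.27 and 8.91 in wild-type replicates 1 to 4 and 9.66, 9.49, 9.58 and 9.73 in the transgenic ones. Every transgenic array lay above every wild-type array, and wild-type replicate 2 was the lowest. The means were 8.94 ± 0.29 and 9.61 ± 0.10 (SD, n = 4), a 1.59-fold rise with a 95% interval of 1.28 to 1.98 (log2 0.67, SE 0.14, limma adjusted p = 0.0440). Within plate columns 5, 7 and 9, read from the array names, it differed by 0.21, 0.62 and 1.11, and in plate row G by 0.57. Row G, with 2 wild-type arrays and 1 transgenic array, is the only row that holds both groups, so every value given here for blocked rows rests on those 3 arrays. The call was lost without any array other than wild-type replicate 3 (limma adjusted p from 0.0142 to 0.125), after a second quantile normalisation (0.0506) and when plate rows or columns were blocked (0.426 and 0.121). It was also lost with the replicate number as a block.

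The close relatives of Slc25a23 did not pass the test. Slc25a25, a second calcium-regulated ATP-magnesium carrier, was at 7.72, 7.87, 7.85 and 7.79 in wild-type and 8.36, 8.43, 7.90 and 8.01 in transgenic replicates 1 to 4. The groups did not overlap, but transgenic replicates 3 and 4 lay close to the wild-type arrays, and the difference of 0.37 (SE 0.12) did not pass (limma adjusted p = 0.141). Slc25a24, the third of this type, differed by -0.18 (limma adjusted p = 0.277), and its direction turned when plate rows were blocked, to 0.03. Slc25a41, which lies beside Slc25a23 on chromosome 17, differed by 0.07 with a low mean of 4.65. Slc25a54, beside Slc25a24 on chromosome 3, was at 2.78 to 3.18 on all arrays.

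The carriers at the core of ATP synthesis did not pass the test. Slc25a4 and Slc25a5 encode adenine nucleotide translocases, which pass ATP out for ADP, and Slc25a3 is the phosphate carrier. Slc25a4 was at 10.60, 10.48, 10.69 and 10.64 in wild-type and 10.77, 10.86, 10.61 and 10.81 in transgenic replicates 1 to 4. Slc25a5 was at 12.03, 11.92, 11.94 and 11.98 in wild-type and 11.76, 12.01, 11.59 and 11.80 in transgenic replicates 1 to 4. Both pairs of groups overlapped: transgenic replicate 3 of Slc25a4 and transgenic replicate 2 of Slc25a5 lay among the wild-type values. The differences were 0.16 for Slc25a4 (95% interval -0.01 to 0.33, limma adjusted p = 0.279) and -0.18 for Slc25a5 (-0.38 to 0.02, limma adjusted p = 0.297). 3 probe sets measured Slc25a5, at -0.18, -0.12 and -0.14. The reference also lists a pseudogene of it, so array signals of near-identical copies cannot be told apart. Slc25a4 is also the translocase of muscle: of 4 muscle markers Acta1 rose by 0.72 (limma adjusted p = 0.0206) while Ckm, Myh1 and Tnnt3 differed by -0.06, -0.04 and 0.11. The mean of the 4 was 5.23 to 5.36 in wild-type and 5.47 to 5.56 in transgenic fat, and its part in the Slc25a4 value was not tested.

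Slc25a3 had the smallest difference of these 3, 0.02. It was at 11.83, 11.81, 11.88 and 11.73 in wild-type and 11.88, 11.86, 11.78 and 11.82 in transgenic replicates 1 to 4. The groups overlapped over nearly their whole range. In array signal over these samples, the 95% interval of its difference ran from -0.10 to 0.15, at most 1.11-fold in either direction.

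Carriers of cofactors gave 1 more pair of groups that did not overlap. Slc25a51 imports NAD+ into mitochondria. Its levels were 10.09, 10.05, 10.12 and 10.03 in wild-type and 9.93, 9.88, 9.92 and 9.89 in transgenic replicates 1 to 4. The gap between groups was narrow but so was the spread within them (SD 0.04 and 0.02), and the difference of -0.16 (SE 0.05) did not pass (limma adjusted p = 0.101), though it passed when the test was limited to genes at or above the median level (0.0449). It was -0.24, -0.14 and -0.13 within plate columns. Slc25a17, the carrier of the peroxisome membrane, was at 10.12, 9.97, 10.20 and 10.04 in wild-type and 10.24, 10.34, 10.15 and 10.21 in transgenic replicates 1 to 4, a difference of 0.15 with overlapping groups (limma adjusted p = 0.262). The coenzyme A carrier Slc25a42 (0.03), the folate and FAD carrier Slc25a32 (0.02) and Slc25a16 (0.08) did not pass. Nor did the pyrimidine nucleotide carriers Slc25a33 (0.05) and Slc25a36 (0.06). A dimmer probe set of Slc25a36 differed by -0.04. The differences of Slc25a16, Slc25a33, Slc25a36 and Slc25a42 turned negative when plate rows were blocked.

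**Figure D2:**
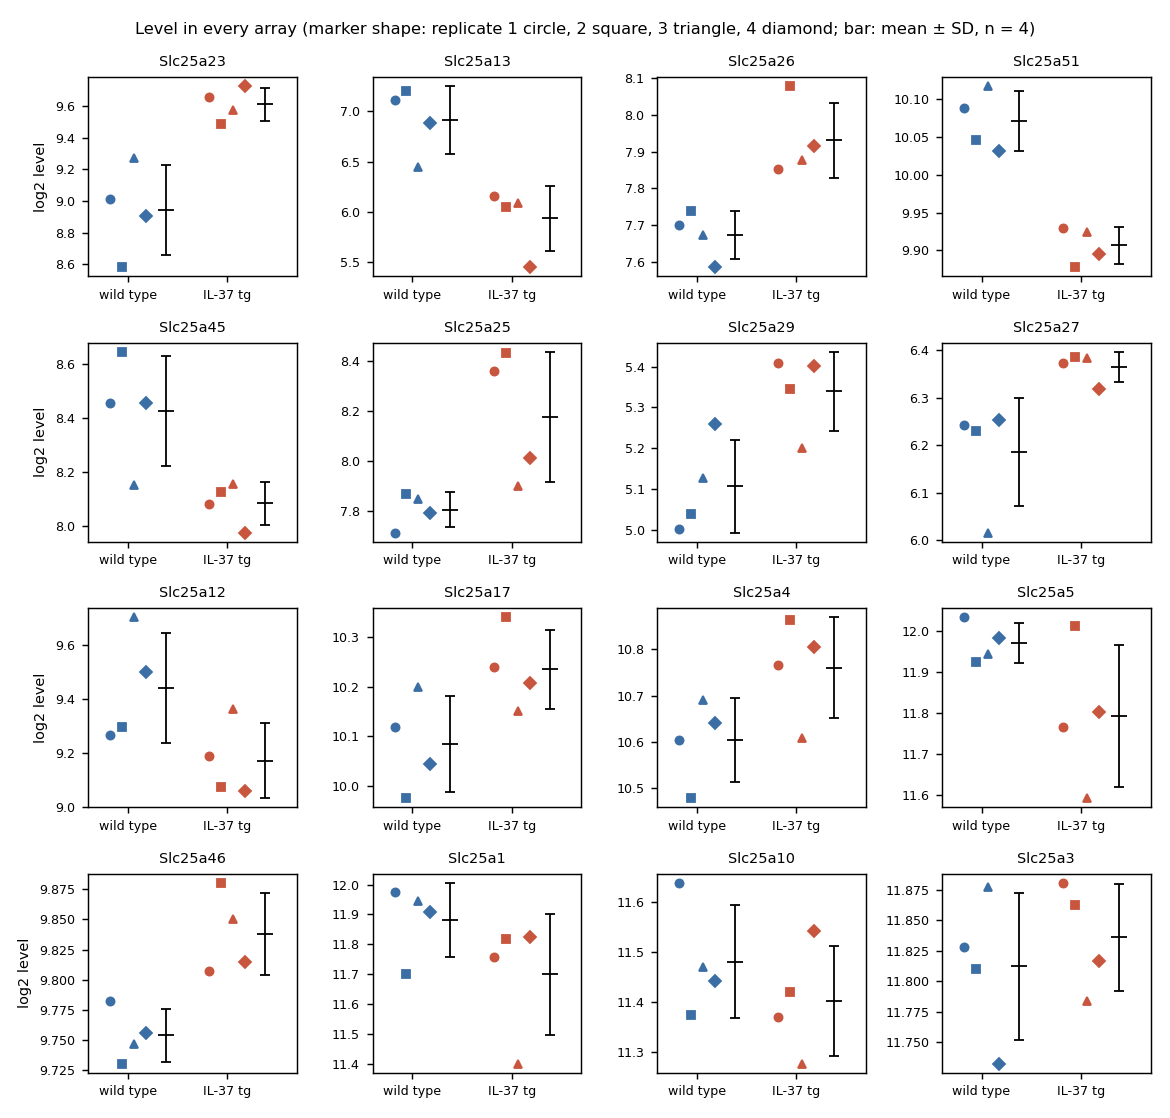
Log2 level (y axis) in each of the 8 arrays for the 16 members with the lowest p, non-overlapping groups or the highest array signal, in order of p. Wild-type arrays are blue and transgenic arrays red, with mean ± SD (n = 4): groups do not overlap for Slc25a23, Slc25a13, Slc25a26, Slc25a51, Slc25a25, Slc25a27 and Slc25a46.

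Carriers of di- and tricarboxylates and the uncoupling-protein-like carriers had no member past the threshold, with 3 positive and 6 negative differences among 9. Slc25a1, the citrate carrier, was at 11.98, 11.70, 11.94 and 11.91 in wild-type and 11.76, 11.82, 11.40 and 11.83 in transgenic replicates 1 to 4. The groups overlapped through wild-type replicate 2, and transgenic replicate 3 was the lowest, so the difference of -0.18 (95% interval -0.44 to 0.07) did not pass (limma adjusted p = 0.393). Slc25a10, the dicarboxylate carrier, was at 11.64, 11.37, 11.47 and 11.44 in wild-type and 11.37, 11.42, 11.28 and 11.54 in transgenic replicates 1 to 4. Its groups overlapped almost fully (difference -0.08). The oxoglutarate carrier Slc25a11, a partner in the malate-aspartate shuttle, differed by 0.05, and by -0.0059 without transgenic replicate 4.

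The uncoupling-protein-like Slc25a27 did not overlap between groups. It was at 6.24, 6.23, 6.02 and 6.25 in wild-type and 6.37, 6.38, 6.38 and 6.32 in transgenic replicates 1 to 4, a difference of 0.18 (SE 0.07) that did not pass (limma adjusted p = 0.177). Wild-type replicate 3 stood below the other wild-type arrays. Its relatives Slc25a14 and Slc25a30 differed by -0.07 and -0.15, and Slc25a34 and Slc25a35 by -0.12 and 0.24. Slc25a35 passed only without wild-type replicate 3, which had its highest wild-type value (0.35, limma adjusted p = 0.0300).

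Slc25a21, the oxodicarboxylate carrier of lysine and tryptophan breakdown, had the widest spread of the family. It was at 4.05, 3.67, 6.40 and 5.14 in wild-type and 3.96, 3.89, 4.13 and 4.03 in transgenic replicates 1 to 4. Wild-type replicates 3 and 4 were high, replicate 1 lay among the transgenic arrays and replicate 2 below all of them. The difference of -0.81 had a 95% interval of -2.02 to 0.40, was -0.28 without wild-type replicate 3 and did not pass (limma adjusted p = 0.424).

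Where 1.27% of all genes fell and 2.07% rose, among 14 carriers of amino acids, ornithine and acylcarnitines 1 fell and none rose. That gene, Slc25a13, exchanges matrix aspartate for cytosolic glutamate. It was at 7.11, 7.20, 6.44 and 6.88 in wild-type and 6.15, 6.05, 6.09 and 5.45 in transgenic replicates 1 to 4. All transgenic arrays lay below all wild-type arrays, with wild-type replicate 3 the nearest to them and transgenic replicate 4 apart at the bottom. The means were 6.91 ± 0.34 and 5.94 ± 0.33 (SD, n = 4), a level 1.96-fold lower (log2 -0.97, SE 0.20, 95% interval -1.44 to -0.50, limma adjusted p = 0.0466). Within plate columns 5, 7 and 9 it differed by -0.40, -0.90 and -1.40. The call was lost without any array other than wild-type replicate 3 (limma adjusted p from 0.0171 to 0.130), after a second quantile normalisation (0.0681) or centring on array medians (0.0544), when plate columns were blocked (0.135) and when rows were, where the difference shrank to -0.51 (0.591). It was also lost with the replicate number as a block.

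The other aspartate-glutamate carrier, Slc25a12, also called aralar, was at 9.27, 9.30, 9.70 and 9.50 in wild-type and 9.19, 9.07, 9.36 and 9.06 in transgenic replicates 1 to 4. The groups overlapped through transgenic replicate 3, and the difference of -0.27 (SE 0.11) did not pass (limma adjusted p = 0.229). Among wild-type arrays the order was the reverse of that of Slc25a13 for replicate 3, which was the highest for Slc25a12 and the lowest for Slc25a13. Of the enzymes around the shuttle, Got1 differed by -0.35, Got2 by 0.01, Mdh1 by 0.16 and Mdh2 by 0.12, with none past the threshold by limma.

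Slc25a26, the importer of S-adenosylmethionine, the methyl donor of mitochondrial RNA, was near the threshold. It was at 7.70, 7.74, 7.67 and 7.59 in wild-type and 7.85, 8.08, 7.88 and 7.91 in transgenic replicates 1 to 4. The groups did not overlap and the difference of 0.26 (SE 0.07) did not pass (limma adjusted p = 0.0806). It was 0.41, 0.23 and 0.15 within plate columns, and it passed when the test was limited to genes at or above the median level (limma adjusted p = 0.0346).

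Slc25a29, a carrier of basic amino acids, and Slc25a45, a less studied relative, differed in opposite directions. Slc25a29 was at 5.002, 5.04, 5.13 and 5.26 in wild-type and 5.41, 5.35, 5.20 and 5.40 in transgenic replicates 1 to 4. Slc25a45 was at 8.46, 8.64, 8.15 and 8.46 in wild-type and 8.08, 8.13, 8.16 and 7.98 in transgenic replicates 1 to 4. In each gene a single array of one group reached the other group. The differences of 0.23 (SE 0.08) and -0.34 (SE 0.10) did not pass (limma adjusted p = 0.141 and 0.112). Slc25a45 passed without wild-type replicate 3, its lowest wild-type array (-0.43, limma adjusted p = 0.0228), and with array weights (limma adjusted p = 0.0416).

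The remaining 9 carriers of this role had no call. Slc25a20, the carnitine-acylcarnitine carrier that brings long-chain fatty acids in for oxidation, differed by 0.03 with a 95% interval of -0.22 to 0.29, and by -0.24 when plate rows were blocked. The branched-chain amino acid carrier Slc25a44 differed by -0.05 (-0.25 to 0.15). The glutamate carriers Slc25a22 and Slc25a18 differed by 0.06 and -0.22, the ornithine carriers Slc25a15 and Slc25a2 by -0.19 and 0.06, the glycine carrier Slc25a38 by 0.04 and Slc25a48 by -0.02. Without wild-type replicate 3 the difference of Slc25a18 was -0.0143 and that of Slc25a15 -0.0646. Slc25a47, which neighbours Slc25a29 on chromosome 12 and is known from liver, differed by 0.39 (limma adjusted p = 0.405). Its level in transgenic replicate 3 was 6.82, where the other 7 arrays lay between 5.51 and 5.94, and without that array the difference was 0.14.

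Carriers of iron and glutathione had no member past the threshold among 4. The mitoferrins Slc25a37 and Slc25a28, which import iron, differed by 0.17 and 0.07. The glutathione carriers Slc25a39 and Slc25a40 differed by 0.11 and -0.03, and that of Slc25a40 was 0.0016 when plate rows were blocked. Of the other 3 members, Slc25a46, an outer membrane protein of mitochondrial shape, was at 9.78, 9.73, 9.75 and 9.76 in wild-type and 9.81, 9.88, 9.85 and 9.81 in transgenic replicates 1 to 4. The groups did not overlap, but the difference of 0.08 (SE 0.05) was small and did not pass (limma adjusted p = 0.350). A dimmer probe set of Slc25a46 differed by 0.40, also without overlap (5.34 to 5.66 in wild-type and 5.68 to 5.96 in transgenic fat). The size of the difference thus depends on the probe set kept. Slc25a53 differed by 0.15 at a mean of 4.55.

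Slc25a43, an X-linked member next to Slc25a5, had a large difference that did not pass. It was at 7.20, 7.37, 6.36 and 6.98 in wild-type and 6.79, 6.58, 6.41 and 5.89 in transgenic replicates 1 to 4. Wild-type replicate 3 lay among the transgenic arrays, so the groups overlapped (difference -0.56, SE 0.26, limma adjusted p = 0.262). Plate column 5 gave 0.23, while columns 7 and 9 gave -0.69 and -1.03, and when plate rows were blocked the sign turned, to 0.12.

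The arrays on which Slc25a13 and Slc25a43 were high were those on which the mean of 7 macrophage markers was high. Cd68, a lysosomal protein of macrophages, was at 11.74, 11.84, 10.62 and 11.33 in wild-type and 10.57, 10.50, 10.22 and 9.80 in transgenic replicates 1 to 4. Adgre1, a surface receptor of macrophages, was at 10.89, 10.89, 9.60 and 10.47 in wild-type and 9.79, 9.76, 9.81 and 9.31 in transgenic replicates 1 to 4. For both markers, as for Slc25a13, wild-type replicates 1 and 2 were the highest arrays, wild-type replicate 3 the lowest wild-type one and transgenic replicate 4 the lowest of all. This was not particular to Slc25a13 and Slc25a43. Slc25a45 had the same highest and lowest arrays, with wild-type replicates 1 and 4 nearly equal (both 8.46). Slc25a24 had the same lowest arrays, but its highest was wild-type replicate 4. Slc25a23 ran the other way only in part. Wild-type replicate 2 was its lowest array and transgenic replicate 4 its highest. Wild-type replicate 1, which had the highest marker mean, was at 9.01, above replicate 4 at 8.91. Of the wild-type arrays Slc25a23 was highest in replicate 3, as was the mean of 6 adipocyte markers (11.96). That mean was highest of all in transgenic replicate 3 (12.10). 6 of the 7 macrophage markers had a negative difference, and none of the 6 passed by limma (Cd68 was lowest, adjusted p = 0.075). The only marker to pass, Cd163, rose (0.77, limma adjusted p = 0.0212). It was at 7.88 to 8.35 in wild-type and 8.66 to 9.10 in transgenic fat. Itgam was lowest in wild-type replicate 3 (8.32), with transgenic replicate 4 at 8.34. The part of macrophage or adipocyte RNA in these carrier values was not tested.

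**Figure D3:**
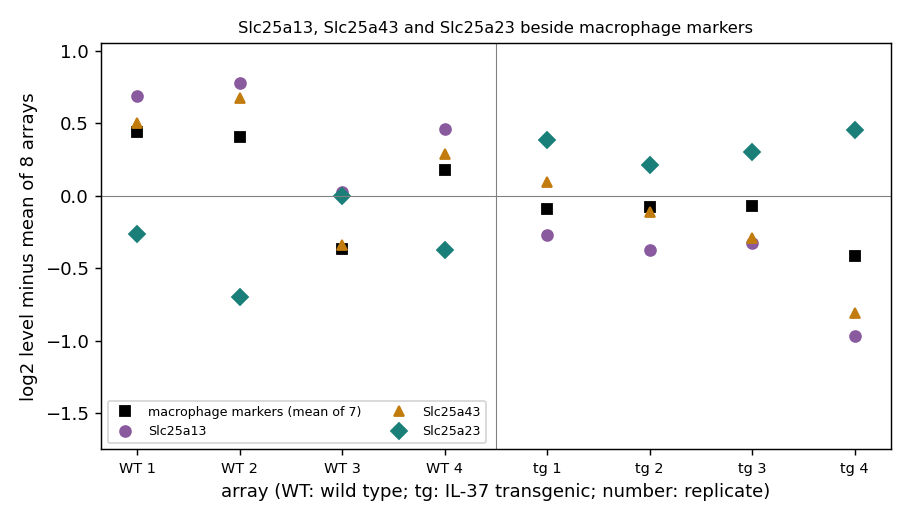
Log2 level minus the mean of 8 arrays (y axis) for Slc25a13, Slc25a43, Slc25a23 and the mean of 7 macrophage markers in each array (x axis, WT wild type and tg IL-37 transgenic). Slc25a13 and Slc25a43 are high where the markers are high (wild-type replicates 1 and 2) and lowest in transgenic replicate 4. Slc25a23 is lowest in wild-type replicate 2 and highest in transgenic replicate 4.

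Slc25a31, the adenine nucleotide translocase of male germ cells, was highest on 1 array that stood apart. It was at 3.44, 3.23, 3.35 and 3.10 in wild-type and 3.63, 3.38, 3.17 and 4.34 in transgenic replicates 1 to 4. Transgenic replicate 4 was the highest, and all 8 arrays lay below 4.49, in the range of dim genes. The difference of 0.35 (limma adjusted p = 0.429) was 0.11 without transgenic replicate 4.

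The same array held RNA of sperm genes, and their part in the Slc25a31 value was not tested. The mean of 6 sperm and epididymis genes was 4.05 to 4.45 in wild-type and 3.95 to 6.45 in transgenic fat. Prm1, a protamine that packs sperm DNA, was at 6.07, 5.31, 7.36 and 6.62 in wild-type and 4.79, 6.33, 7.64 and 11.97 in transgenic replicates 1 to 4. Tnp1, a transition protein of spermatids, was 7.86 in transgenic replicate 4 and 4.45 to 4.85 elsewhere. Akap4, of the sperm tail, was 7.58 there and 3.04 to 3.47 elsewhere. The epididymal genes Lcn5, Lcn8 and Defb48 differed by at most 0.05 in size between groups. Without this array Slc25a23 differed by 0.63 (limma adjusted p = 0.0938) and Slc25a13 by -0.81 (0.0699).

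**Figure D4:**
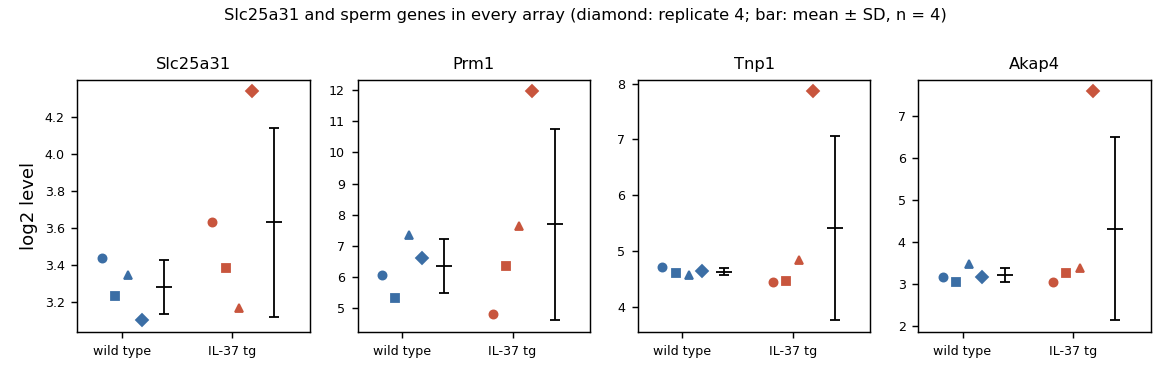
Log2 level (y axis) of Slc25a31 and of the sperm genes Prm1, Tnp1 and Akap4 in every array by group, with mean ± SD (n = 4). Transgenic replicate 4 is the highest in each panel, at 4.34, 11.97, 7.86 and 7.58.

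Outside the Slc25 names, 2 of 51 measured partner genes rose, a share of 3.92% against 2.07% of all genes, and none fell, where 1.27% of all genes did. At an unadjusted p of 0.05 by limma 14 of the 51 were past the threshold, or 27.5% against 20.6% of all genes, 6 of them higher and 8 lower. The 2 genes that rose past the adjusted threshold are sideroflexins, a separate family of inner membrane transporters. Sfxn1, a serine transporter of one-carbon metabolism, was at 10.25, 10.09, 10.30 and 10.19 in wild-type and 10.63, 10.85, 10.69 and 10.79 in transgenic replicates 1 to 4. Sfxn4, needed for iron-sulphur cluster and complex I assembly, was at 7.68, 7.68, 7.79 and 7.46 in wild-type and 8.02, 8.24, 8.01 and 8.19 in transgenic replicates 1 to 4. Neither overlapped between groups. Sfxn1 rose by 0.53 (SE 0.07, limma adjusted p = 0.0141) and Sfxn4 by 0.46 (SE 0.09, limma adjusted p = 0.0383). The Sfxn1 call was lost without wild-type replicate 4 (limma adjusted p = 0.0632) and when plate rows were blocked (0.328), and the Sfxn4 call for 7 of 8 arrays left out and with either plate block. Both calls were lost with the replicate number as a block. Sfxn2 differed by -0.38 (limma adjusted p = 0.0948), Sfxn3 by 0.07 and Sfxn5 by -0.26.

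**Figure D5:**
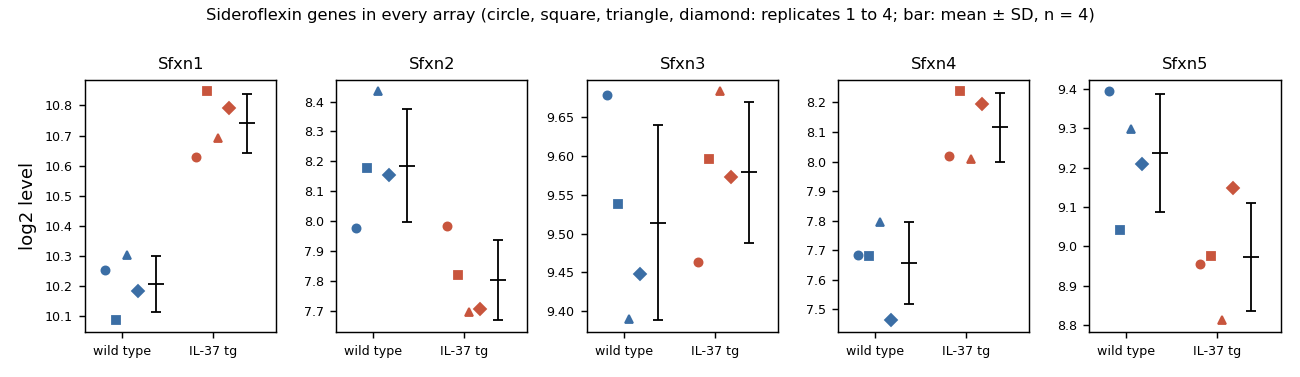
Log2 level (y axis) of the 5 sideroflexin genes in every array by group, with mean ± SD (n = 4). For Sfxn1 and Sfxn4 every transgenic array lies above every wild-type array, and for Sfxn2, Sfxn3 and Sfxn5 the groups overlap.

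The uncoupling proteins Ucp1 and Ucp3, which belong to the same carrier fold, had no call: Ucp3 differed by 0.47 (limma adjusted p = 0.172) and Ucp1, at a mean of 3.84, by -0.41 (0.390). Ucp2, and the other pyruvate carrier subunit Mpc2, were listed but were not among the genes tested. The pyruvate carrier subunit Mpc1 differed by 0.20, the channels Vdac1, Vdac2 and Vdac3 by 0.03, -0.06 and 0.03, and Mtch1 and Mtch2 by 0.05 and 0.09. Of 12 genes that import carriers into the membrane none passed, with Timm22, the channel of the carrier pathway, at -0.29 (limma adjusted p = 0.0727) and Timm8a1 at -0.26. Of 11 shuttle enzymes none passed, with Gpd2, of the glycerol phosphate shuttle, at 0.45 (limma adjusted p = 0.0927) and Mdh1 at 0.16. Of 3 carnitine shuttle genes none passed, with Crat at 0.12 and Cpt1a at -0.09. Of 9 genes of mitochondrial biogenesis none passed, with Tfb2m at 0.27 (limma adjusted p = 0.0880) and the coactivator Ppargc1a at -0.58 (0.206).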

How the data were processed

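8 single-colour whole-transcript arrays were used. The deposited values are log2 levels of probe sets made with RMA, per the submitters' processing notes. Its version, settings and annotation are not given in the sources used here. RMA equalises arrays by quantiles, which hides a change common to most genes. Of 35556 probe sets 21218 had 1 symbol, updated through Entrez identifiers to assembly GRCm38.p6, which left 18820 genes. 4 members had several probe sets, and the brightest was kept. All genes, unfiltered, entered a two-sided moderated test (limma 3.58.1 under R 4.3.3) with p-values adjusted by Benjamini-Hochberg over all of them and called at 0.05. The steps were tested on simulated data. Array values are given for members that passed, the 10 with the lowest p, those with groups that did not overlap and the 5 brightest, and for others chosen after their values were seen (Slc25a21, Slc25a31, Slc25a43, Slc25a47). Of partner lists the genes that passed and the 2 of lowest p are named, with a few more chosen likewise. The members and lists were chosen with earlier results of these data known. Signals of different probe sets are not amounts of RNA and were not compared. Alternatives were other normalisations, filters, probe set rules, priors, weights, blocks, thresholds and left-out arrays. Python 3.11.15 with matplotlib 3.10.9 made the plots.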

Additional observations from a re-analysis of the deposited data

Results flagged for a closer look

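In 118 groups of 4 arrays (the 46 members, 10 partner genes and 3 sperm genes), 1 array stood far from the other 3 in 11, of which 8 were among the 92 groups of members. Chance alone flags about 1 in 20 groups, genes on the same arrays are not independent, and the sperm genes are described because 1 array stood apart in them, so nothing is read from the count. In the transgenic group these were, as log2 levels, Slc25a1 in replicate 3 (11.40), Slc25a16 in replicate 2 (9.98), Slc25a20 in replicate 1 (9.43), and Slc25a13 (5.45), Slc25a39 (10.69), Tnp1 (7.86) and Akap4 (7.58) in replicate 4. In the wild-type group all 4 were in replicate 3: Slc25a27 (6.02), Slc25a30 (9.11), Slc25a53 (4.34) and Tfb2m (9.23).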

How the results depend on the processing

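The count of 1 member higher and 1 lower was fragile. It was 0 and 0 after a second quantile normalisation and with the replicate block, the plate row or the plate column as a block. Centring left 0 lower. Genes at or above the median gave 2 higher (Slc25a23 and Slc25a26) and 1 lower (Slc25a51), with Slc25a13 outside the test, a threshold of 0.1 gave 2 higher, and array weights gave 2 lower. Leaving out 1 array gave 0 to 2 in each direction, and leaving out wild-type replicate 3 and transgenic replicate 4 together, chosen after seeing the data, gave 2 lower. The median difference of the members was 0.0705 with the plate row as a block, against 0.0387 for all genes. Of partner genes, 4 were higher and 2 lower among genes at or above the median and at a threshold of 0.1, 4 higher with array weights, 1 with the plate column, 0 with the plate row or replicate block, and 0 to 3 higher with 1 array left out. Arrays of the 2 groups that share a number had correlations of 0.0566 to 0.102, and those with different numbers -0.305 to 0.3715. These values cannot show whether the numbers pair the arrays.

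32 of the 46 members kept their direction in every setting run. With the plate row as a block the sign turned for Slc25a16 (-0.0428), Slc25a20 (-0.24), Slc25a24 (0.0332), Slc25a33 (-0.16), Slc25a36 (-0.0625), Slc25a40 (0.0016), Slc25a42 (-0.32), Slc25a43 (0.12), Slc25a48 (0.0764) and Timm8a1 (0.0494). It also turned for Slc25a3 (-0.0118) after quantile normalisation, for Slc25a42 (-0.0397) with array weights, and for Slc25a11 (-0.0114) and Slc25a48 (0.0137) without both arrays. With 1 array left out, members that turned ran from -0.0029 to 0.0456 (Slc25a3), -0.0059 to 0.12 (Slc25a11), -0.0595 to 0.0971 (Slc25a20), -0.0139 to 0.074 (Slc25a32), -0.024 to 0.13 (Slc25a33), -0.0342 to 0.0894 (Slc25a38), -0.0599 to 0.12 (Slc25a42), -0.12 to 0.0045 (Slc25a44) and -0.0731 to 0.033 (Slc25a48). The causes were not tested.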

Other observations

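4 pairs of members are neighbours among the protein-coding genes of the reference, and their differences were not alike in every pair. On chromosome 17 Slc25a41 differed by 0.07 and Slc25a23 by 0.67, on chromosome 3 Slc25a54 by 0.13 and Slc25a24 by -0.18, on chromosome 12 Slc25a29 by 0.23 and Slc25a47 by 0.39, and on the X chromosome Slc25a43 by -0.56 and Slc25a5 by -0.18.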
